A study of Mus musculus with 6 samples.

Results

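The Rab GTPases, the small switch proteins that give each internal membrane of a cell its identity, were followed in mouse bone marrow-derived macrophages (BMDMs), which are cultured from marrow cells. The members were all rows of the deposited expression table whose gene name is Rab followed by digits and at most 1 letter, which gave 58 of 29957 rows. Of these, 40 reached 1 FPKM (a fragment count divided by transcript length and by the total of the library) in at least 3 of the 6 libraries and were tested, and 18 did not. The rule used no difference between groups. One group of 3 libraries came from wild-type BMDMs given LPS+PA-BSA. LPS is a bacterial cell wall component sensed by the receptor TLR4, and PA-BSA is a preparation of a free fatty acid that the study used in place of ATP as a second signal for the Nlrp3 inflammasome. The other 3 libraries came from wild-type control BMDMs. All 6 libraries carry the same genotype label. The labels give no dose and no time, and do not state what the control cells were given, LPS or the carrier BSA included. Cells with LPS as the single agent were not analysed here, and the contributions of LPS and PA-BSA cannot be told apart. Nothing in the labels assigns the 3 libraries of a group to separate animals or cultures. The p-values thus cover only the spread between these libraries, which may be technical.

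A Rab protein is active on a membrane when it holds GTP and is carried through the cytosol by a GDP dissociation inhibitor when it holds GDP. Exchange factors load GTP, GTPase-activating proteins of the TBC family end the active state, and effectors such as tethers and motor adaptors bind the active form. In macrophages Rab proteins move TLR4 to the cell surface, pass phagosomes from an early to a late, degradative state, and direct secretion of cytokines and granule contents.

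The 8 macrophage markers examined were each found above 1 FPKM, and their summed level was 12060 to 14310 FPKM in LPS+PA-BSA libraries and 18880 to 21930 FPKM in controls. Markers of B, T and dendritic cells summed to under 1 FPKM in every library. Neutrophil markers summed to 0.316 to 1.63 FPKM with LPS+PA-BSA and 0.288 to 8.77 FPKM in controls, megakaryocyte markers to 1.98 to 7.37 and 2.15 to 25.2 FPKM, erythroid markers to 0.0566 to 5.40 and 0 to 2.49 FPKM, and mast cell and basophil markers to 0.826 to 2.2 and 1.57 to 1.81 FPKM, in the same order of groups. The 4 stromal cell markers summed to 30.2 to 38.0 FPKM with LPS+PA-BSA and 60.8 to 119 FPKM in controls, and the part of these cell types in the Rab levels was not tested. In bulk RNA, fewer cells of a type and less RNA per cell cannot be told apart. The smallest steps between low FPKM values correspond to about 14.4 to 18.9 M (mega) fragments per LPS+PA-BSA library and 13.8 to 21.2 M per control library. Only 8.96% to 11.7% of the low values examined in a library lay on whole multiples of its step, so these depths are rough. Control library 3 and LPS+PA-BSA library 1 stood apart from the other libraries of their own groups in how their values depend on transcript GC content. The slope on GC content of log2(FPKM + 1), taken relative to each gene's mean over the 6 libraries, was -0.423 per 10 percentage points in LPS+PA-BSA library 1, against -0.162 and -0.107 in LPS+PA-BSA libraries 2 and 3, and it was -0.0647 in control library 3, against 0.358 and 0.398 in control libraries 1 and 2.

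The Rab family as a whole moved no more often than other genes. With limma on log2(FPKM + 1), 7 of the 40 tested members were higher in LPS+PA-BSA cells at a Benjamini-Hochberg adjusted p under 0.05, and 15 were lower. That is 17.5% higher and 37.5% lower, against 22.2% higher and 32.9% lower among all 11364 genes tested. In either direction 55% of members were called, against 55.1% of all genes. The median log2 difference was -0.10 for the members and -0.11 for all genes tested. The 3 values of each group did not overlap for 24 members, 9 of them above and 15 below the controls. That is 60% of members against 63.2% of all genes, of which 26.3% lay above and 36.9% below. With each library centred on its own median the split turned to 11 higher and 8 lower, because that scaling moves the median difference of all genes up by 0.173 on the log2 scale. Under it 29.6% of all genes were higher and 23.4% lower, so each difference is best read beside the median of all genes. Leaving out LPS+PA-BSA library 2, control library 1 or control library 2 lowered the count of higher members to 4 and that of lower members to 10, 10 and 9 in that order. In the same fits the share of all genes called was 18.4%, 17.7% and 17.7% higher and 25.9%, 24.3% and 25.0% lower. Under quantile scaling 5 members were higher and 12 lower (26.5% and 25.7% of all genes), and with the GC and length trend of each library removed 8 were higher and 14 lower (28.1% and 32.7%).

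The changes that passed the test were spread over nearly every membrane step and often set members of 1 step against each other. Rab20 and Rab5a of early phagosomes and Rab10 and Rab12 of recycling and surface delivery were higher, as were Rab6a, Rab18 and Rab32. Among those at least 1.5-fold lower on the log2(FPKM + 1) scale were Rab4a, Rab4b and Rab11b of recycling endosomes, Rab31, Rab1b, Rab6b, Rab3d and Rab40c. Summed over all 58 members, Rab transcripts reached 1142, 1088 and 1105 FPKM in the LPS+PA-BSA libraries and 1215, 1203 and 1155 FPKM in the control libraries. All 3 treated sums lay under all 3 control sums. Rab7 alone made up 18.4% to 19.4% of the sum with LPS+PA-BSA and 18.7% to 19.1% in controls.

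**Figure D1:**
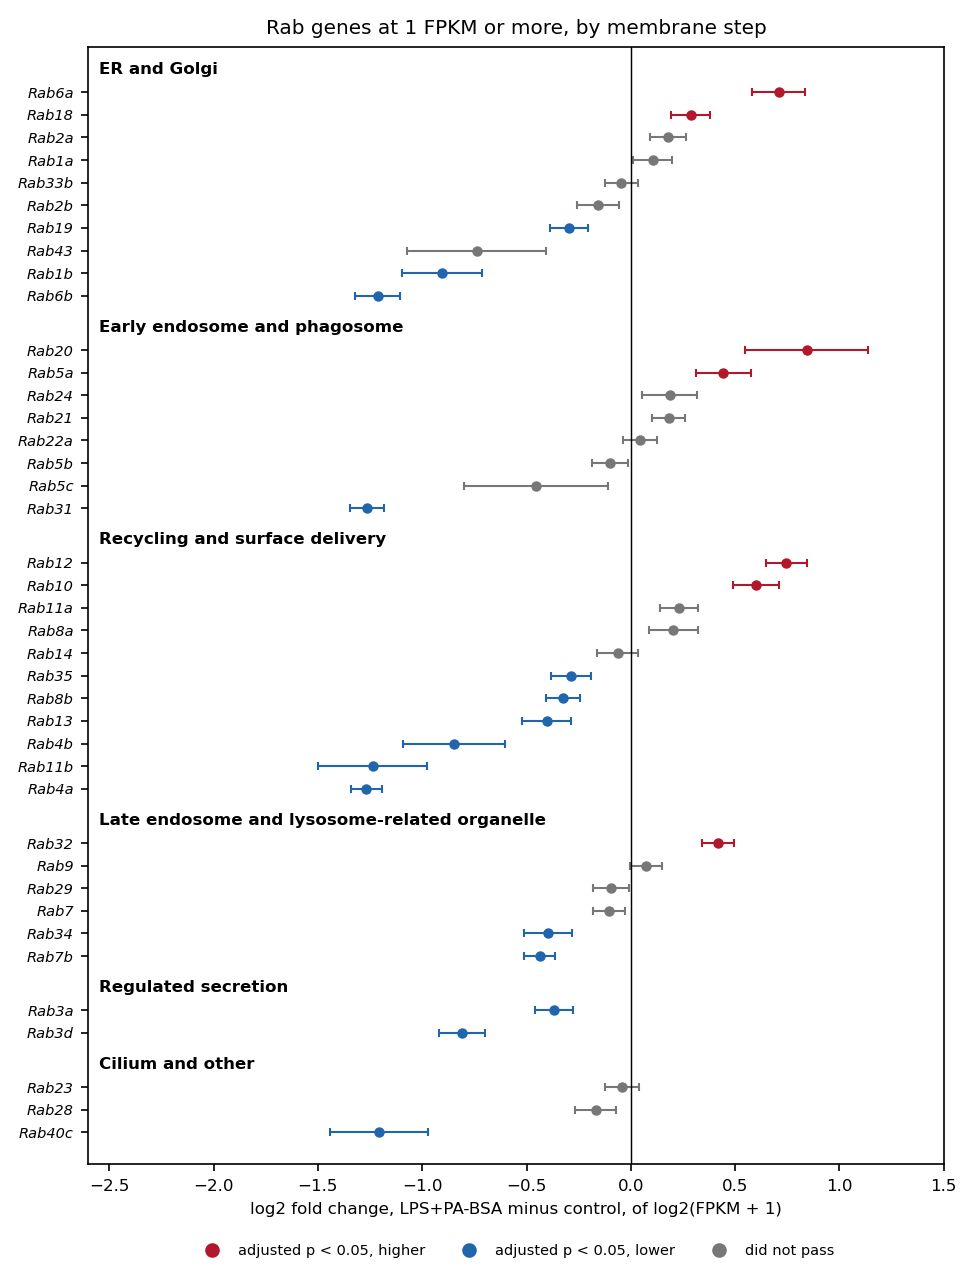
Log2 difference of log2(FPKM + 1), LPS+PA-BSA minus control, for the 40 tested Rab genes, grouped by membrane step (points: limma estimate; whiskers: standard error; n = 3 libraries a group). Rab20, Rab12, Rab6a and Rab10 lie to the right of 0 beyond 0.5, while Rab4a, Rab31, Rab11b, Rab6b and Rab40c lie below -1.

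Among the 10 tested members of the endoplasmic reticulum (ER) and Golgi, 2 (20%) were higher and 3 (30%) were lower. That is near the 22.2% and 32.9% of all genes tested. The summed level of these members was 247 ± 5.63 FPKM with LPS+PA-BSA and 259 ± 5.98 FPKM in controls (SD, n = 3 each). Rab6a (chr7:100607410-100641268 in mm10, plus strand), which directs retrograde and secretory traffic at the Golgi, had 38.5, 33.5 and 32.1 FPKM in the LPS+PA-BSA libraries, against 18.6, 19.5 and 24.7 FPKM in the control libraries. Every treated library was above every control library. Exons of Mrpl48, on the opposite strand, overlap those of Rab6a, and the sources used here do not give whether fragments were counted by strand. The same limit holds for 12 of the 40 tested members. The log2 difference was 0.71 ± 0.13 (SE; limma adjusted p = 0.00394), and it passed the test with any 1 library left out and under 3 alternative scalings, namely quantile normalization, centring each library on its median, and removal, library by library, of the trend on transcript length and GC content. Rab6b (chr9:103111787-103185276, plus strand), its close copy best known from neurons, went the other way and was low throughout, with 1.00, 0.747 and 1.02 FPKM in the LPS+PA-BSA libraries, against 3.58, 3.81 and 2.99 FPKM in the control libraries. The difference was -1.21 ± 0.11 (limma adjusted p = 0.000169), and it was -0.48 with the GC and length trend removed, still past the threshold. Rab1a and Rab1b both control the step from the ER to the Golgi. Rab1a had 101, 85.3 and 91.5 FPKM in the LPS+PA-BSA libraries, against 82.6, 81.9 and 93.0 FPKM in the control libraries, and the groups overlapped. Its difference of 0.11 ± 0.094 did not pass the test (limma adjusted p = 0.372).

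Rab1b (chr19:5099205-5107072, minus strand) had 28.5, 33.5 and 31.1 FPKM in the LPS+PA-BSA libraries, against 65.3, 72.1 and 43.2 FPKM in the control libraries. All 3 treated values lay below the controls, but control library 3 was closer to them than to control libraries 1 and 2. The difference was -0.90 ± 0.19 (limma adjusted p = 0.00761), and it was -0.47 with the GC and length trend removed, still past the threshold. Rab18, of the ER and lipid droplets, averaged 20.8 ± 1.43 FPKM with LPS+PA-BSA and 16.9 ± 1.40 FPKM in controls (limma adjusted p = 0.0371), but it passed the test in only 1 of 6 fits that each left out a library and was 0.07 with the GC trend removed. Rab19 averaged 1.89 against 2.55 FPKM (limma adjusted p = 0.0333) in LPS+PA-BSA and control cells, and did not pass under quantile or median scaling. Rab18 and Rab19 lie under the 1.5-fold limit and outside the rule for named members. Like the other members outside that rule, they are described here after their values were seen. The remaining ER and Golgi members did not pass. Rab2a averaged 43.2 ± 2.32 FPKM with LPS+PA-BSA and 38.1 ± 2.90 FPKM in controls, Rab2b 4.18 against 4.78 FPKM and Rab33b 4.70 against 4.88 FPKM, LPS+PA-BSA given before control. Rab43 had 6.81, 15.7 and 16.8 FPKM in the LPS+PA-BSA libraries, against 25.0, 22.7 and 16.5 FPKM in the control libraries. The groups overlapped, and its difference of -0.74 ± 0.33 did not pass (limma adjusted p = 0.102). Of the 75-base words in its transcripts, 74.2% also occur in an overlapping gene on the same strand, Gm45140, so its level is uncertain.

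Of the 8 members of early endosomes and phagosomes, 2 (25%) were higher and 1 (12.5%) was lower, against 22.2% and 32.9% of all genes tested. The summed level was 191 ± 7.67 FPKM with LPS+PA-BSA and 241 ± 26.3 FPKM in controls. Rab31 and Rab5c held the largest parts of that difference. Rab20 (chr8:11453518-11478710, minus strand), which drives phagosome maturation in macrophages, had 8.81, 15.2 and 16.7 FPKM in the LPS+PA-BSA libraries, against 8.40, 8.36 and 4.56 FPKM in the control libraries. LPS+PA-BSA library 1 lay only just above control libraries 1 and 2. The difference of 0.84 ± 0.29 was the largest rise among the tested members in this fit (limma adjusted p = 0.0474), but the call held in only 1 of 6 fits that left out a library, the one without LPS+PA-BSA library 1. It ranged from 0.59 to 1.11 over those fits, and was 1.26 with the GC and length trend removed. Exons of an antisense gene, E230013L22Rik, overlap Rab20.

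Rab5a, a master switch of early endosome fusion whose exons overlap those of Pp2d1 on the opposite strand, had 18.9, 15.9 and 15.9 FPKM in the LPS+PA-BSA libraries, against 11.5, 10.7 and 14.4 FPKM in the control libraries. The treated values were all higher, with a difference of 0.44 ± 0.13 (limma adjusted p = 0.0259), though the call held in only 2 of 6 fits that left out a library. Its paralogs did not pass. Rab5b averaged 46.6 ± 3.58 FPKM with LPS+PA-BSA and 49.9 ± 2.58 FPKM in controls (limma adjusted p = 0.361). Rab5c had 41.2, 57.9 and 62.4 FPKM in the LPS+PA-BSA libraries, against 89.1, 104 and 42.2 FPKM in the control libraries, with control library 3 inside the range of the treated libraries. Its difference was -0.46 ± 0.34 (limma adjusted p = 0.296) and reached -0.84, past the threshold, without control library 3. Rab31 (chr17:65651729-65772752, minus strand), also called Rab22b, works between the trans-Golgi network and endosomes. It had 26.4, 26.0 and 24.0 FPKM in the LPS+PA-BSA libraries, against 63.2, 58.7 and 65.9 FPKM in the control libraries. Every control library held more than 2 times the level of any treated library, and the difference of -1.26 ± 0.079 (limma adjusted p = 3.91e-05) stayed between -1.38 and -1.09 under the 3 scalings. Rab21, Rab22a and Rab24 did not pass, at 20.2 against 17.7 FPKM, 10.3 against 9.96 FPKM and 4.34 against 3.67 FPKM in LPS+PA-BSA and control cells, and for Rab21 the groups did not overlap.

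Promoters were chosen for the 2 largest rises and 2 largest falls among called members, and for called members with CACGTG in the start region. CACGTG is the palindrome bound by E-box factors such as TFEB. Rab20, one of those rises, and Rab5a were the 2 called members found to hold it. Rab31, one of those falls and the strongest of this step, does not hold it. The other fall, Rab4a, had no entry among the promoters used. Each sequence runs 5′ to 3′ along the gene's strand, over 300 bases that lie mostly before the annotated start (RefSeq, GRCm38.p6), and capitals mark CACGTG, which stands at 1 place in Rab20 and at 2 places in Rab5a.
Rab20 promoter, chr8:11478591-11478890, minus strand: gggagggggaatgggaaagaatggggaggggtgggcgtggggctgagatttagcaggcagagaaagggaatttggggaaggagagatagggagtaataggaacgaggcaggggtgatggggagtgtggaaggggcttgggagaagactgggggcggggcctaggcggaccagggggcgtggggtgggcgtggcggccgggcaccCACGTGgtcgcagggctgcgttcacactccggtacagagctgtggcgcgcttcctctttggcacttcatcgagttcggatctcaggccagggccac
Rab5a promoter, chr17:53478984-53479283, plus strand: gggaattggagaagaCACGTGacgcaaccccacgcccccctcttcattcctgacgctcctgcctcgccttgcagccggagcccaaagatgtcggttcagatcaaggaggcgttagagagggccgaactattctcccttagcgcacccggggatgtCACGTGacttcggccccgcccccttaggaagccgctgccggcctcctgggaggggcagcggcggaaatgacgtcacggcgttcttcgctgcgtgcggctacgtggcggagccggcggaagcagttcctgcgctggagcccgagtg
Rab31 promoter, chr17:65772703-65773002, minus strand: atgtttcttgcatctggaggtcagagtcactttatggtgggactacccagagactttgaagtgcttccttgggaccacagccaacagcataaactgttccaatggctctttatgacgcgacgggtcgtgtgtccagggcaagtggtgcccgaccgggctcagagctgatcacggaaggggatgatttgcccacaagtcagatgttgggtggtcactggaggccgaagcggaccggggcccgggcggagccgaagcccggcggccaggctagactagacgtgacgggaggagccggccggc
Promoters of 36 of the 40 tested members were matched by symbol, and CACGTG, searched on both strands, was in 5 members. Besides Rab20 and Rab5a these were Rab21, Rab23 and Rab24, none of which passed the test. Of all 32851 mouse promoters of this length, 7.15% hold it. The AP-1 letters TGANTCA were found in Rab34 alone (7.81% of all promoters), the interferon-response letters GAAANNGAAA in Rab19 alone (3.44%), and the kappaB letters GGGANNTTCC in no member (1.47%). Member promoters were rich in CpG, with a median of 29.5 CpG for members called higher, 25 for those called lower and 23 for those not called, against 7 for all promoters.

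**Figure D2:**
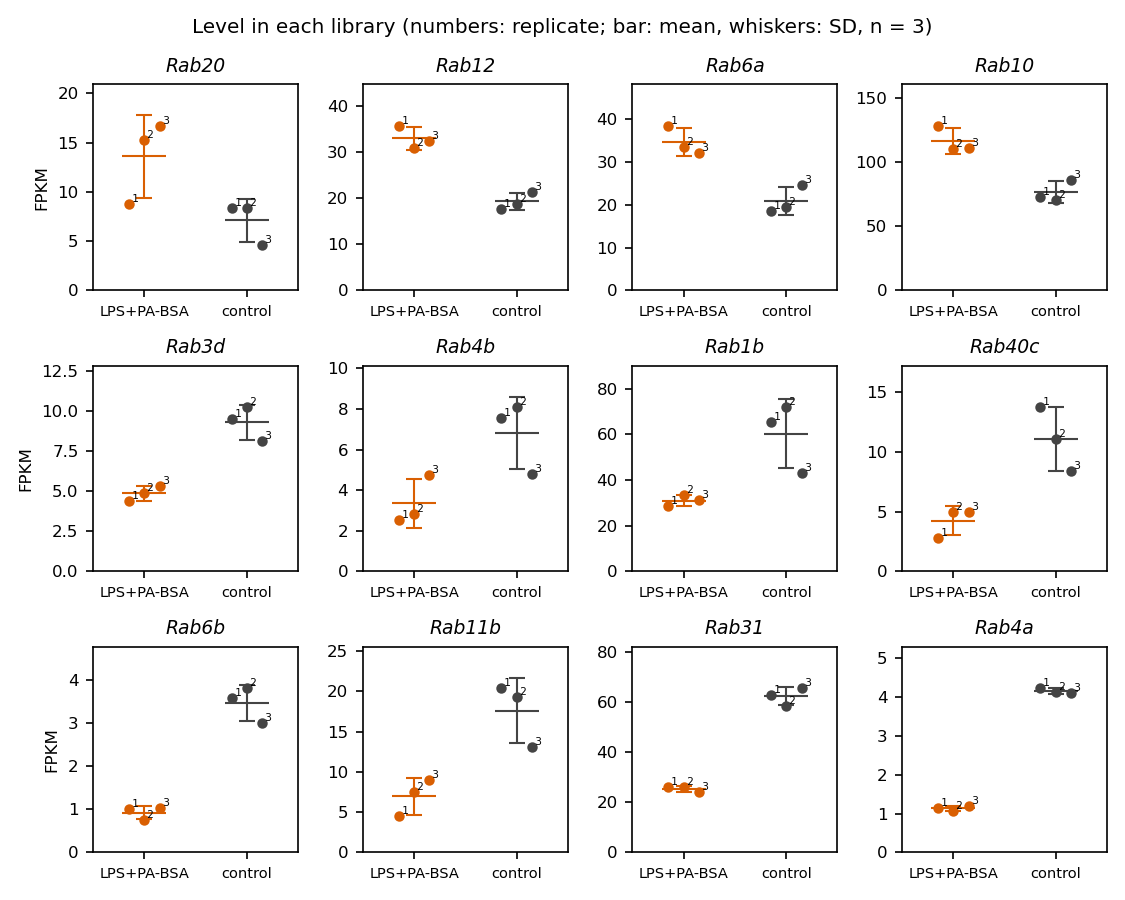
FPKM in each library for the 12 Rab genes called with a difference of at least 1.5-fold on the log2(FPKM + 1) scale, LPS+PA-BSA left of control (numbers: replicate; horizontal bar: mean; whiskers: SD, n = 3; each panel starts at 0). The groups are apart in every panel, narrowly for Rab20 and Rab4b.

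Among the 11 members of recycling and surface delivery, the largest group, 2 were higher (18.2%, against 22.2% of all genes tested) and 6 were lower (54.5%, against 32.9%). The summed level was 337 ± 16.2 FPKM with LPS+PA-BSA and 319 ± 8.84 FPKM in controls, and the groups overlapped. Rab10 (chr12:3247428-3309969, minus strand), which carries TLR4 to the plasma membrane in macrophages, had 128, 110.2 and 111 FPKM in the LPS+PA-BSA libraries, against 72.5, 70.7 and 86.3 FPKM in the control libraries. It was the second most abundant member in LPS+PA-BSA cells, and each treated library exceeded each control. The difference was 0.60 ± 0.11 (limma adjusted p = 0.00402), and under quantile scaling it was 0.39 and just missed the threshold. An antisense gene, Rab10os, overlaps its exons. Rab12 (chr17:66494512-66519729, minus strand), which moves receptors from recycling endosomes to lysosomes and is a substrate of the kinase Lrrk2, had 35.8, 31.0 and 32.4 FPKM in the LPS+PA-BSA libraries, against 17.8, 18.8 and 21.4 FPKM in the control libraries. The difference of 0.75 ± 0.099 (limma adjusted p = 0.000988) held under all 3 scalings and with any 1 library left out. Its call was lost within LPS+PA-BSA libraries 1 and 2 and control library 3 alone, at 0.61. The calls of Rab10, Rab6a and Rab1b were among those also lost there, at 0.46, 0.52 and -0.47. The promoter of Rab12, chosen because this gene was one of the 2 largest rises, was the richest in CpG of the 4 printed.
Rab12 promoter, chr17:66519621-66519920, minus strand: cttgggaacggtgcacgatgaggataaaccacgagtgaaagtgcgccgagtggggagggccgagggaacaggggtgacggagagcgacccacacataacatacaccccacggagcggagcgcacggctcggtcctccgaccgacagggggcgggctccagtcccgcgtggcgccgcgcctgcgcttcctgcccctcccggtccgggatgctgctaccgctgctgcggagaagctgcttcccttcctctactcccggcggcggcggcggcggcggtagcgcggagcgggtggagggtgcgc
It holds none of the 4 motifs searched.

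Transcripts of 3 Rab proteins of fast and slow recycling endosomes, Rab4a, Rab4b and Rab11b, were lower. Rab4a (chr8:123805985-123835287, plus strand), of the fast route back to the surface, had 1.15, 1.06 and 1.20 FPKM in the LPS+PA-BSA libraries, against 4.24, 4.12 and 4.09 FPKM in the control libraries. The libraries of each group lay close together and far from those of the other, and the difference of -1.27 ± 0.074 passed the test (limma adjusted p = 2.94e-05). Rab4b (chr7:27168424-27178896, minus strand) had 2.53, 2.81 and 4.74 FPKM in the LPS+PA-BSA libraries, against 7.58, 8.11 and 4.78 FPKM in the control libraries. LPS+PA-BSA library 3 and control library 3 were nearly equal. Its difference of -0.85 ± 0.24 (limma adjusted p = 0.0247) lost its call in 4 of 6 fits that left out a library and was -0.27, no longer past the threshold, with the GC trend removed. In addition, 52.5% of the 75-base words of Rab4b are shared with the overlapping gene Gm21983, so its level is uncertain.

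Rab11a and Rab11b, the marker proteins of the recycling endosome, did not share a call. Rab11b (chr17:33742484-33760530, minus strand) had 4.51, 7.44 and 9.04 FPKM in the LPS+PA-BSA libraries, against 20.4, 19.3 and 13.1 FPKM in the control libraries. The treated libraries varied by a factor of 2 among themselves but stayed below every control, with a difference of -1.24 ± 0.26 (limma adjusted p = 0.00733). An antisense gene, Gm17251, overlaps its exons. Rab11a had 31.4, 29.9 and 28.6 FPKM in the LPS+PA-BSA libraries, against 25.0, 23.3 and 27.9 FPKM in the control libraries, with all treated values slightly above the controls. Its difference of 0.23 ± 0.090 did not pass (limma adjusted p = 0.0657), passed with median centring at 0.40 or without control library 3 at 0.30, and was -0.0016 with the GC trend removed. Rab8a and Rab8b, which deliver membrane to the surface, did not share one either. Rab8b, one of the 3 most abundant members on average, had 84.3, 75.4 and 77.8 FPKM in the LPS+PA-BSA libraries, against 98.9, 94.3 and 105 FPKM in the control libraries. Its difference of -0.33 ± 0.081 (limma adjusted p = 0.0143) did not pass with median centring, at -0.15, or in 3 of 6 fits that left out a library. Rab8a had 30.4, 31.9 and 26.9 FPKM in the LPS+PA-BSA libraries, against 28.5, 26.8 and 22.0 FPKM in the control libraries. The groups overlapped, with a difference of 0.20 ± 0.12 (limma adjusted p = 0.183) that was 0.38 and passed with median centring (limma adjusted p = 0.0251).

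Rab13 and Rab35, which act in junctional and fast endosomal recycling, were lower by smaller steps. Rab13 averaged 2.01 against 2.99 FPKM and Rab35 17.7 against 21.9 FPKM in LPS+PA-BSA and control cells (limma adjusted p = 0.0251 and 0.0417). Both calls were lost with median centring and in at least 4 of the 6 fits that left out a library. Rab14, between Golgi and endosomes, averaged 17.9 against 18.7 FPKM and did not pass.

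In the late endosome and lysosome-related group 1 of 6 members (16.7%) was higher and 2 (33.3%) were lower. The shares among all genes tested were 22.2% and 32.9%. The summed level of the group was 318 ± 15.3 FPKM with LPS+PA-BSA and 340 ± 7.01 FPKM in controls. Rab7, the organiser of late endosomes and of fusion with lysosomes, was the most abundant member in every library, with 222, 200.0 and 207 FPKM in the LPS+PA-BSA libraries, against 232, 225 and 219.6 FPKM in the control libraries. The groups overlapped, and its difference of -0.10 ± 0.075 did not pass (limma adjusted p = 0.270). Under quantile scaling it was -0.34 and passed (limma adjusted p = 0.0140). Rab7b (chr1:131688695-131715439, plus strand), a different gene that limits TLR4 signalling and acts between endosomes and Golgi, had 36.7, 32.9 and 33.6 FPKM in the LPS+PA-BSA libraries, against 47.7, 45.6 and 47.3 FPKM in the control libraries. All treated values were lower, with a difference of -0.44 ± 0.074 (limma adjusted p = 0.00298), a call that held with any 1 library left out and was lost with median centring at -0.26.

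Rab32, which builds lysosome-related organelles and guards bacterial vacuoles, had 30.4, 30.0 and 29.7 FPKM in the LPS+PA-BSA libraries, against 22.1, 24.0 and 20.7 FPKM in the control libraries. The treated libraries agreed to within 1 FPKM and were all above the controls, and the difference of 0.42 ± 0.078 (limma adjusted p = 0.00454) held under all 3 scalings and with any 1 library left out. Rab34, which acts in macropinosomes and phagosome maturation, averaged 5.84 ± 0.434 FPKM with LPS+PA-BSA and 8.04 ± 1.20 FPKM in controls (limma adjusted p = 0.0260), a call lost under each of the 3 scalings. Rab9, of the route from late endosomes to the Golgi, and Rab29, which recruits Lrrk2, did not pass, at 27.4 against 26.0 FPKM and 11.0 against 11.9 FPKM in LPS+PA-BSA and control cells.

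Of the regulated secretion members, Rab3d was lower. The other one tested, Rab3a, entered the test only through the control libraries, where it was higher, so its call was favoured by the filter. Their summed level was 5.65 ± 0.584 FPKM with LPS+PA-BSA and 10.6 ± 1.07 FPKM in controls. Rab3d (chr9:21907491-21918192, minus strand), of secretory granules, had 4.41, 4.88 and 5.33 FPKM in the LPS+PA-BSA libraries, against 9.50, 10.3 and 8.15 FPKM in the control libraries. The groups were apart, and the difference of -0.81 ± 0.11 (limma adjusted p = 0.00112) held under all 3 scalings, at -0.37 with the GC trend removed. Rab3a, the classical synaptic vesicle Rab, had 0.637, 0.799 and 0.874 FPKM in the LPS+PA-BSA libraries, against 1.13, 1.36 and 1.36 FPKM in the control libraries. The call on its difference of -0.37 ± 0.091 (limma adjusted p = 0.0141) was lost under each of the 3 scalings.

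The last 3 members act at cilia or elsewhere. Rab40c (chr17:25882114-25919727, minus strand), which carries a SOCS box and adapts substrates to ubiquitin ligases, had 2.83, 4.94 and 5.00 FPKM in the LPS+PA-BSA libraries, against 13.8, 11.1 and 8.39 FPKM in the control libraries. Every treated value was lower, with a difference of -1.21 ± 0.23 (limma adjusted p = 0.00524) that became -0.64 with the GC trend removed. An antisense gene, Gm16278, overlaps its exons. Rab23 and Rab28, known from cilia, averaged 1.45 against 1.52 FPKM and 2.90 against 3.38 FPKM in LPS+PA-BSA and control cells and did not pass.

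The 18 members under the filter were not tested, and 17 of them stayed under 1 FPKM in every library. Just outside the threshold lay Rab39, whose third-highest library was at 0.980 FPKM, and Rab33a at 0.828 FPKM. Just inside lay Rab3a at 1.13 FPKM and Rab23 at 1.54 FPKM. Rab39 had 0.691, 0.686 and 0.525 FPKM in the LPS+PA-BSA libraries, against 1.42, 0.980 and 1.62 FPKM in the control libraries. Rab33a had 0.831, 0.885 and 0.828 FPKM in the LPS+PA-BSA libraries, against 0.274, 0.134 and 0.215 FPKM in the control libraries. Rab42 had 0, 0.101 and 0 FPKM in the LPS+PA-BSA libraries, against 0.846, 0.964 and 0.644 FPKM in the control libraries. In all, 9 of the 18 had groups that overlapped. Rab33a was the 1 member with every treated library above the controls, and 8 had every treated library below them, namely Rab39, Rab42, Rab27a, Rab38, Rab30, Rab36, Rab40b and Rab44. All of these were low, and Rab39 alone reached 1 FPKM in any library. Among the 11364 genes tested, 26.3% had every treated library above the controls and 36.9% below. No such share was taken over genes under the filter, so these counts give no support to a direction. The secretory Rab27a and Rab27b reached at most 0.537 and 0.0458 FPKM, and Rab38, the close relative of Rab32, at most 0.868 FPKM. Rab40b and Rab15 reached at most 0.504 and 0.488 FPKM and Rab36 at most 0.419 FPKM. Rab27b was 1 of 10 members that stayed under 0.2 FPKM in every library, with Rab30, Rab37, Rab39b, Rab3b, Rab25, Rab44, Rab26, Rab9b and Rab3c.

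Members that share a number did not always share a call, so the balance within 11 such pairs was compared. Rab11b supplied 12.6%, 19.9% and 24.0% of the summed FPKM of Rab11a and Rab11b in LPS+PA-BSA libraries, against 45.0%, 45.3% and 31.9% in control libraries. Rab1b supplied 22.1%, 28.2% and 25.4% of the Rab1 pair with LPS+PA-BSA and 44.1%, 46.8% and 31.7% in controls. In both pairs the shares were apart and control library 3 was nearest to the treated libraries. Rab6b made up 2.60% ± 0.450 of the Rab6 pair with LPS+PA-BSA and 14.4% ± 3.14 in controls. Rab7b supplied 14.1% ± 0.111 of its sum with Rab7 after LPS+PA-BSA and 17.2% ± 0.463 in controls. Rab8b supplied 72.7% ± 2.12 of the Rab8 pair with LPS+PA-BSA and 79.4% ± 2.86 in controls. In these 3 pairs too every treated share was below every control share.

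Rab4b went the other way and made up 73.7% ± 5.64 of the Rab4 pair with LPS+PA-BSA and 61.4% ± 6.65 in controls, since Rab4a fell further. Rab5b supplied 73.4% ± 1.03 of its sum with Rab5a after LPS+PA-BSA and 80.4% ± 1.75 in controls. Rab2b supplied 8.85% ± 1.08 of the Rab2 pair with LPS+PA-BSA and 11.1% ± 0.199 in controls. The shares of Rab3d beside Rab3a and of Rab5c beside Rab5a or Rab5b overlapped between the groups. For the difference of log2(FPKM + 1) between pair members, the smallest exact two-sided permutation p was 0.1, the lowest that 3 libraries a group allow, and 0.138 after Benjamini-Hochberg adjustment over the 11 pairs, so no pair can pass at 0.05. With the GC and length trend removed, the Rab1a minus Rab1b difference of the log2 changes was 0.34, against 1.01 as reported. For Rab6a minus Rab6b it was 1.03, against 1.92, and for Rab11a minus Rab11b 0.85, against 1.47. For Rab4a minus Rab4b it was -0.77, against -0.42, and for Rab5a minus Rab5c 0.39, against 0.90. For Rab5b minus Rab5c it turned to -0.044, against 0.36.

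**Figure D3:**
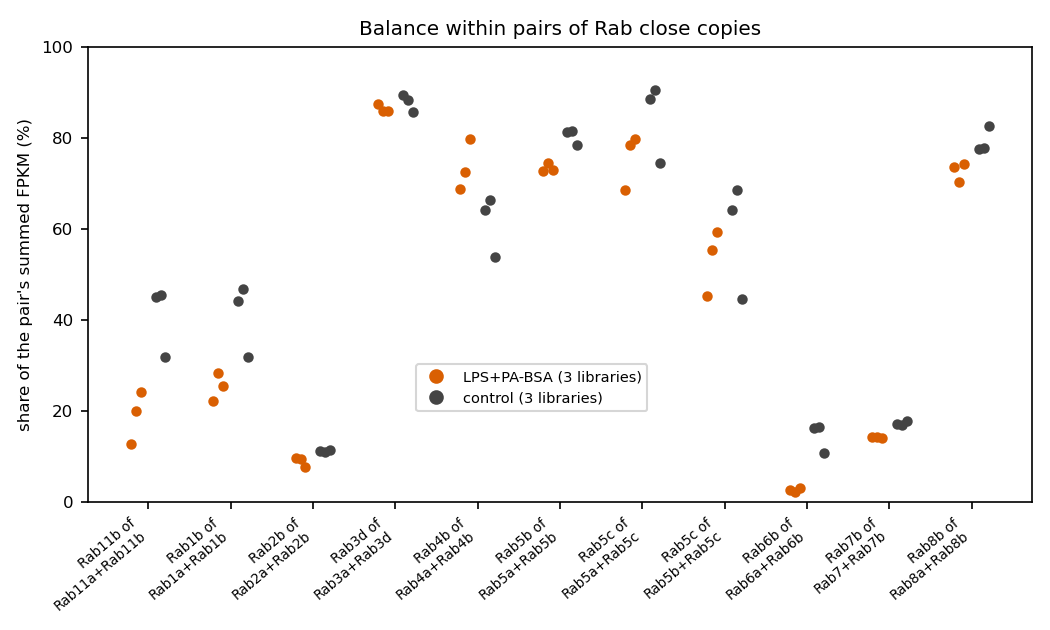
Share of the second gene in the summed FPKM of each pair of Rab genes with the same number, in percent, 1 point per library, LPS+PA-BSA left of control. The share of Rab11b was 18.8% ± 5.81 with LPS+PA-BSA and 40.7% ± 7.68 in controls, and that of Rab6b was 2.60% ± 0.450 and 14.4% ± 3.14 in the same order.

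The members' differences moved with the GC content of their transcripts. Over the 40 members the log2 difference and the mean transcript GC content had Pearson r = -0.499 and Spearman rho = -0.483, a description across genes that share the same 6 libraries, against r = -0.295 over 11355 tested genes with annotated sequence. The median GC content was 44.5% for members called higher, 54.2% for those called lower and 49.9% for those not called. With the trend on GC content and length removed from each library the members' r was -0.0454. That removal brings r over all tested genes to 0 by construction, so the members' value tests nothing. It also takes out any difference between the groups that runs with GC content or length.

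LPS+PA-BSA library 1 departed from LPS+PA-BSA libraries 2 and 3 in the members in which control library 3 departed from control libraries 1 and 2. Over the 40 members these departures had Pearson r = 0.794 and Spearman rho = 0.806, and they ran with GC content at r = -0.545 in the LPS+PA-BSA group and -0.611 in controls. Rab20 stood at 0.552 times the mean of the other treated libraries in LPS+PA-BSA library 1, and at 0.544 times that of the other controls in control library 3. For Rab11b these ratios were 0.547 in LPS+PA-BSA library 1 and 0.656 in control library 3, and for Rab5c 0.686 and 0.438 in the same order. Rab20, which is GC-rich and called higher, had a wide spread in both groups. Within LPS+PA-BSA library 3 and control libraries 1 and 2 alone, 7 members were higher and 15 lower (22.4% and 37.2% of all genes), with the single LPS+PA-BSA library assumed to vary like the controls. Within LPS+PA-BSA libraries 1 and 2 and control library 3 alone, 1 was higher and 7 lower (10.5% and 15.8% of all genes), with the single control library assumed to vary like the treated ones. The cause of these shared departures was not tested.

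**Figure D4:**
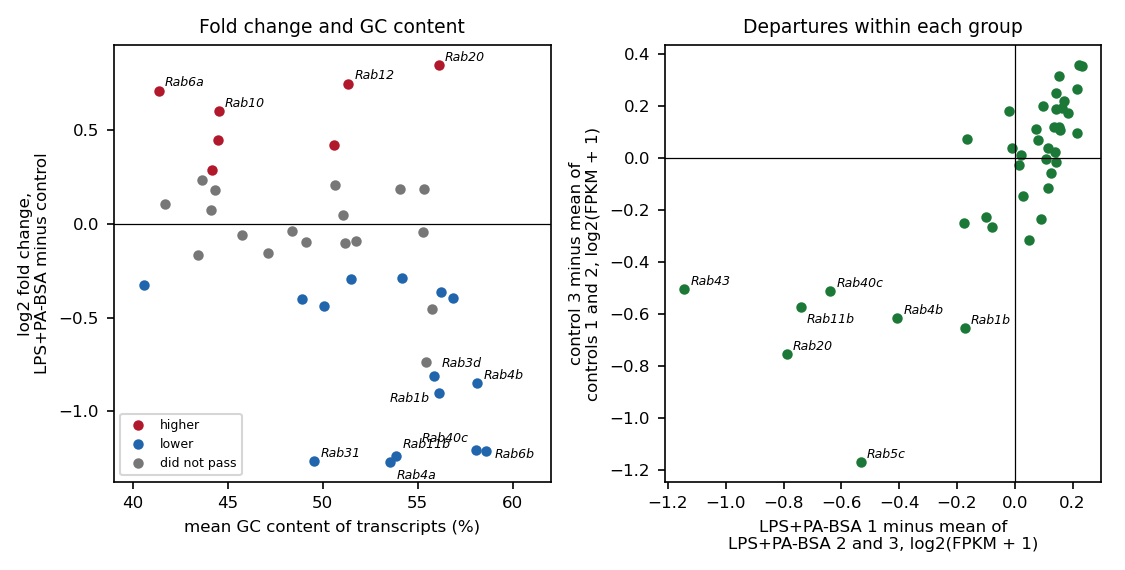
Left, log2 difference of each of the 40 tested Rab genes, LPS+PA-BSA minus control, against the mean GC content of its transcripts in percent (r = -0.499). Right, departure of control library 3 from controls 1 and 2 against that of LPS+PA-BSA library 1 from LPS+PA-BSA libraries 2 and 3, in log2(FPKM + 1), 1 point per gene (r = 0.794), with Rab5c, Rab20 and Rab43 among the lowest points.

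In the authors' deposited table, 11 of the 40 members had a q-value under 0.05 and a higher mean in LPS+PA-BSA cells, and 8 had such a q-value and a lower mean, against 27.0% and 24.3% of the genes tested here. All 7 members called higher by limma were among those 11 in the authors' deposited table, and 8 of the 15 called lower were among its 8. Among the 40 tested members, the authors' deposited table marks 0 of those higher there as significant, and 6 of those lower. That mark does not follow the q-value alone. Rab12, with a fold change of 1.71 and a q-value of 1.97e-10 there, is not marked. Rab4b, with a fold change of 0.4925 and a q-value of 0.0183, is marked. No share of all genes was taken for the mark. The authors' deposited table also marks 4 of the 18 members under the filter as significant, among them Rab33a with a fold change of 4.08 and a q-value of 0.000879. Those lower there are Rab39, Rab40b and Rab42.

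Among the genes for proteins that load, deliver, switch off and read Rab GTPases, more were lower than higher. Of 136 partner genes listed, 116 were tested, of which 16 (13.8%) were higher and 57 (49.1%) lower, against 22.2% and 32.9% of all genes tested. Of the 57, 11 were under 1 FPKM in every LPS+PA-BSA library and passed the filter only through the controls, Tbc1d4 and Mical1 among them. Of the 16, 1, Rabgap1l, passed only through the LPS+PA-BSA libraries. Members of this kind had to differ, so these counts give no support to a direction. Their median log2 difference was -0.29, against -0.11 for all genes. Both are descriptions of the lists, and 37 partners were lower without control library 1 and 36 without control library 2. Of all genes, 24.3% and 25.0% were lower in those fits.

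Among 31 tested exchange factors 7 (22.6%) were higher and 19 (61.3%) lower, against 22.2% and 32.9% of all genes tested. Their median was -0.43. Of those lower, Dennd2c, Dennd2d and Mon1a passed the filter only through the controls. Rab3il1, an exchange factor for Rab8, had 0.826, 1.38 and 1.09 FPKM in the LPS+PA-BSA libraries, against 25.0, 26.2 and 21.2 FPKM in the control libraries. It was near 1 FPKM in every treated library and had the largest difference of the partners, -3.59 ± 0.13 (limma adjusted p = 4.70e-06). Madd, which activates Rab3 and Rab27, averaged 5.61 ± 0.197 FPKM with LPS+PA-BSA and 15.8 ± 2.01 FPKM in controls, and Rin3, for Rab5-family members, averaged 1.17 ± 0.290 FPKM with LPS+PA-BSA and 6.47 ± 2.33 FPKM in controls. These 3 falls held under each scaling and with any 1 library left out. The exchange factors that rose included Dennd4a, for Rab10, at 3.56 ± 0.419 FPKM with LPS+PA-BSA and 1.48 ± 0.192 FPKM in controls, Ric1, for Rab6, at 11.8 ± 0.976 FPKM with LPS+PA-BSA and 6.59 ± 0.643 FPKM in controls, and Rabgef1 (Rabex-5), for Rab5, at 10.9 ± 0.529 FPKM with LPS+PA-BSA and 6.54 ± 0.334 FPKM in controls. Their limma adjusted p were 0.000612, 0.000941 and 0.000622. Of the Rab genes they act on, Rab10, Rab6a and Rab5a were higher, Rab6b was lower, and Rab5b and Rab5c did not pass. Dennd4b and Dennd4c, outside the naming rule, were lower, at 3.59 against 9.35 FPKM and 16.4 against 28.7 FPKM in LPS+PA-BSA and control cells. Whether the rises of exchange factors and of Rab genes are linked was not tested.

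Among 33 tested GTPase-activating proteins 3 (9.09%) were higher and 16 (48.5%) lower, against 22.2% and 32.9% of all genes tested. Their median was -0.26. Of those lower, Tbc1d2, Tbc1d4, Tbc1d16, Evi5l and Sgsm2 passed the filter only through the controls. Tbc1d4 (AS160), which switches off Rab10, averaged 0.369 ± 0.0627 FPKM with LPS+PA-BSA and 3.89 ± 0.331 FPKM in controls (limma adjusted p = 1.38e-05). It entered the test only through the control libraries, so its call was favoured by the filter. Tbc1d8 averaged 1.21 ± 0.136 FPKM with LPS+PA-BSA and 5.57 ± 1.13 FPKM in controls and Tbc1d22a 8.22 ± 0.945 FPKM with LPS+PA-BSA and 21.2 ± 4.06 FPKM in controls, and these falls held under each scaling and with any 1 library left out. Tbc1d9 rose, at 42.7 ± 2.58 FPKM with LPS+PA-BSA and 24.8 ± 1.37 FPKM in controls, as did Rabgap1l, at 1.82 ± 0.153 FPKM with LPS+PA-BSA and 0.662 ± 0.101 FPKM in controls. Rabgap1l entered the test only through the LPS+PA-BSA libraries, which favoured its call. Tbc1d15, which acts on Rab7, averaged 26.7 against 21.3 FPKM in LPS+PA-BSA and control cells, and its call was lost under quantile scaling, with the GC trend removed (0.06) and in 4 of 6 fits that left out a library.

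Among 36 tested effectors 5 (13.9%) were higher and 16 (44.4%) lower, against 22.2% and 32.9% of all genes tested. Their median was -0.24. Of those lower, Rilp, Rab11fip3 and Mical1 passed the filter only through the controls. The Rab11 effectors differed in direction. Rab11fip1 had 8.04, 8.67 and 8.73 FPKM in the LPS+PA-BSA libraries, against 1.57, 1.70 and 2.05 FPKM in the control libraries, the largest rise of the partners at 1.78 ± 0.094 (limma adjusted p = 1.98e-05). Rab11fip5 had 7.59, 8.45 and 8.55 FPKM in the LPS+PA-BSA libraries, against 34.1, 34.9 and 20.2 FPKM in the control libraries, a difference of -1.70 ± 0.21 (limma adjusted p = 0.000704). Lrrk2, the kinase that phosphorylates Rab10, Rab12, Rab8 and others, averaged 6.19 ± 1.10 FPKM with LPS+PA-BSA and 2.03 ± 0.224 FPKM in controls (limma adjusted p = 0.000320), and Uso1 (p115), the tether that Rab1 recruits to Golgi-bound vesicles, 40.1 ± 3.63 FPKM with LPS+PA-BSA and 26.1 ± 1.03 FPKM in controls (limma adjusted p = 0.00159). Mical1, an actin oxidase bound by Rab proteins, averaged 0.625 ± 0.211 FPKM with LPS+PA-BSA and 6.03 ± 2.04 FPKM in controls, and Plekhm1, a Rab7 effector at lysosomes, 25.2 ± 3.42 FPKM with LPS+PA-BSA and 53.9 ± 13.2 FPKM in controls. The call of Mical1 was favoured by the filter, which it passed only through the controls. The difference of Plekhm1 was -1.05, and -0.37 with the GC trend removed, still past the test.

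The HOPS and CORVET tethers act with Rab7 and Rab5 in fusion of late and early endosomes. Of their 8 members 5 (62.5%) were lower and none higher, against 32.9% and 22.2% of all genes tested. Their median was -0.32. Vps18, of the core shared by both, had 1.94, 4.08 and 5.25 FPKM in the LPS+PA-BSA libraries, against 18.9, 22.0 and 5.45 FPKM in the control libraries. Control library 3 was close to the treated libraries, and the difference of -1.66 ± 0.52 (limma adjusted p = 0.0340) lost its call in 4 of 6 fits that left out a library and with the GC trend removed. Vps33a, the other core subunit named, averaged 19.0 ± 0.466 FPKM with LPS+PA-BSA and 29.0 ± 1.78 FPKM in controls and Tgfbrap1, a CORVET subunit, 3.72 ± 0.246 FPKM with LPS+PA-BSA and 6.01 ± 0.270 FPKM in controls, and both falls held under each scaling. Of the 8 genes for Rab delivery and lipid attachment only Gdi2, a GDP dissociation inhibitor, was lower, at 43.4 ± 5.03 FPKM with LPS+PA-BSA and 56.6 ± 5.75 FPKM in controls, and only Rabggtb, a subunit of geranylgeranyl transferase, was higher, at 23.9 ± 3.21 FPKM with LPS+PA-BSA and 17.5 ± 3.12 FPKM in controls. Each made up 12.5% of the delivery list. Both calls were lost in 4 of 6 fits that left out a library (limma adjusted p = 0.0297 and 0.0493).

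**Figure D5:**
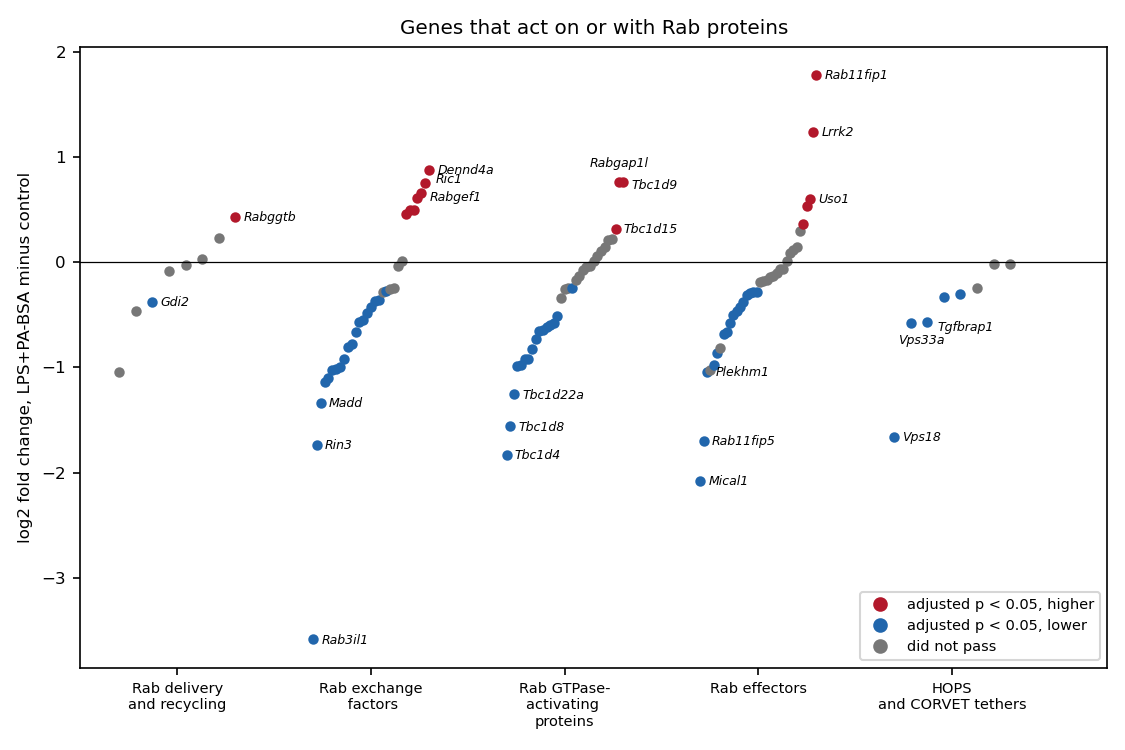
Log2 difference, LPS+PA-BSA minus control, of 116 tested partner genes of the Rab GTPases in 5 lists, 1 point per gene, coloured by the limma call. Rab3il1 lies lowest, at -3.59, and Rab11fip1 highest, at 1.78.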

How the data were processed

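RNA of 6 libraries of mouse BMDMs was measured, 3 given LPS+PA-BSA and 3 controls, grouped by sample title. Per the labels' protocols, poly(A) RNA was turned into dUTP-marked, strand-preserving libraries and sequenced as read pairs. The authors deposited FPKM per gene and library, and, per the file headers, a fold change (a ratio of group means), the log2 of it, p-values and q-values. For those p-values and q-values the tool is not given in these sources. Per the submitters' processing notes, HISAT2 2.2.1, StringTie 2.1.6, edgeR, DESeq2 and cutadapt 1.9 were used, with mm10 as the build and no role given. FPKM is relative to each library's total, and PCR can favour fragments by GC content, which can move FPKM of GC-rich against GC-poor genes.

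With no counts deposited, limma 3.58.1 (R 4.3.3, two-sided, variance trend) was fitted to log2(FPKM + 1) of the 11364 genes that reached 1 FPKM in 3 or more libraries, LPS+PA-BSA minus control, with Benjamini-Hochberg adjustment over all of them. This scale understates changes of low genes. The script was tested on simulated data. Single values per library were compared by exact permutation, two-sided. Alternatives were other pseudocounts (0.1 and 0.5), filters (none and 5 FPKM), quantile or median scaling, and removal of GC and length trends. Others were no variance trend, a replicate block, leaving out each library, a term for 2 sets of libraries, and fits within each set. These sets (control 1, control 2 and LPS+PA-BSA 3, and the rest) were described in earlier work on these data. The labels do not give them. By GC slope, LPS+PA-BSA 2 (-0.162) lay nearer to LPS+PA-BSA 3 (-0.107) than to LPS+PA-BSA 1 (-0.423). Depth was read roughly from the smallest FPKM steps (tolerance 0.5%), where 1 fragment in 1 kb was worth about 0.0473 to 0.0723 FPKM. This covers counting error only. Gene IDs were matched to GENCODE M21 (29871 of 29957) for coordinates, GC content and shared 75-base words, and promoters to RefSeq (GRCm38.p6). Other steps ran in Python 3.11.15 (numpy 2.4.6, pandas 2.3.3, matplotlib 3.10.9, scipy 1.17.1).

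The members, role groups, partner lists and tests were chosen with earlier results of these data known. Members named by rule were those called at 1.5-fold or more, the 3 with the highest mean, and reported members sharing a number with any of these. Of each partner list up to 3 of the largest rises and falls were named. Members outside the rule were described after their values were seen. Nothing in the labels pairs libraries by replicate number, so the fit reported used no block.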

Additional observations from a re-analysis of the deposited data

How the results depend on the processing

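Of 338 repeats of the named members' differences, 294 kept direction and side of the threshold, 33 lost the call, 4 gained one and 7 turned in sign. Members called higher numbered 7 and lower 15, of 40, in the fit reported. With no filter 4 and 9 of these same 40 were called, against 9.02% and 13.8% of all 29957 genes. With median centring they numbered 11 and 8, against 29.6% and 23.4% of all genes. Fewer were called within LPS+PA-BSA 1, LPS+PA-BSA 2 and control 3, a set with a single control library. With a filter at 5 FPKM 9 were lower, of 29 members tested, against 31.3% of all genes. Leaving out 1 library gave 4 to 8 higher and 9 to 16 lower, with the higher count at 4 without LPS+PA-BSA 2, control 1 or control 2 and the lower count at 10, 10 and 9 without the same libraries and at 10 without LPS+PA-BSA 3. For partners, 6 were higher and 19 lower within that same set, 34 were lower with the 5 FPKM filter, and leaving out 1 library gave 13 to 18 higher and 36 to 60 lower, with 37 lower without control 1 and 36 without control 2. Turned in sign were Rab1a (-0.10 under quantile scaling, -0.13 with GC and length trends removed, -0.0054 within LPS+PA-BSA 1, LPS+PA-BSA 2 and control 3), Rab11a (-0.0016) and Rab3a (0.067) with GC and length trends removed, Rab7 with median centring (0.068) and Rab8a within LPS+PA-BSA 3, control 1 and control 2 (-0.034); of these only Rab3a had passed the test. The cause was not tested.

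With the replicate number as a block, 4 members were higher and 9 lower, and 13 and 39 partners. Of all genes, 16.9% were higher and 24.8% lower in that fit. Libraries with the same number deviated from their group means with correlations of -0.472, 0.0907 and -0.589 for numbers 1, 2 and 3. No library correlated best with its own number. These deviations also hold the departures of control 3 and LPS+PA-BSA 1 that ran with GC content. The correlations therefore cannot decide whether the libraries are paired. Depth limits the members near 1 FPKM, such as Rab3a and Rab6b, most.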
